A study of Mus musculus with 12 samples.

Results

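Hepcidin, encoded by Hamp, and 7 genes that move, store or sense iron were followed in 4 blood vessels of the mouse. The 8 genes (Hamp, Hfe, Trf, Tfrc, Slc11a2, Slc40a1, Fth1 and Ftl1) were taken by symbol from the array annotation, out of 19938 genes with a probe set of their own, and all 8 were measured. Each array was hybridised with total RNA of 1 vessel from untreated wild-type C57BL/6 mice of 8 weeks: 3 arrays each of coronary artery, ascending aorta, descending aorta and superior mesenteric artery. The last is the branch of the abdominal aorta that feeds the gut. The study set out to find expression that differs with the embryonic origin of the vessel. The labels call the replicates biological without saying whether 1 array held 1 animal or a pool. In the main fit each p-value rests on the spread within vessels, pooled over all 12 arrays. This spread may be partly technical, and arrays of every vessel enter each comparison through it.

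Hepcidin is a peptide hormone that the liver secretes into the blood. It binds ferroportin, the only known cellular iron exporter, and causes its removal from the cell surface, so that iron stays inside gut cells and macrophages. Heart muscle also transcribes the hepcidin gene. Cells take up iron as transferrin bound to the transferrin receptor, carry it out of the endosome through a divalent metal transporter and store it in ferritin. The messages for ferritin and the transferrin receptor are controlled largely through iron regulatory proteins, so their protein levels need not follow the RNA measured here.

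The list was chosen by the high log2 level of Hamp in the coronary arrays of this same table, with the other 7 genes added for their roles in iron handling, so the values of Hamp are given as a description with no test. The mouse has a second hepcidin gene, Hamp2, with closely similar sequence. The 250 bases before the start of each gene are shown (RefSeq, GRCm38.p6, 5′ to 3′). A short motif is among the places where the hepcidin genes differ there. The window of Hamp lies at chr7:30944030-30944279 and that of Hamp2 at chr7:30924182-30924431, both on the minus strand. Capitals mark matches to GGCGCC, the core letters of the bone morphogenetic protein response element, and to TTCNNNGAA, the letters that STAT factors bind.
Hamp: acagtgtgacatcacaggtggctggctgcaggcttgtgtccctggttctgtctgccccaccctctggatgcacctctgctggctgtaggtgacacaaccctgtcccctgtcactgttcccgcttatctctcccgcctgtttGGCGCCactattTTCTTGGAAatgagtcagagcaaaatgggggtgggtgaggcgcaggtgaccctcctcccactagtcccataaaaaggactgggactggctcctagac
Hamp2: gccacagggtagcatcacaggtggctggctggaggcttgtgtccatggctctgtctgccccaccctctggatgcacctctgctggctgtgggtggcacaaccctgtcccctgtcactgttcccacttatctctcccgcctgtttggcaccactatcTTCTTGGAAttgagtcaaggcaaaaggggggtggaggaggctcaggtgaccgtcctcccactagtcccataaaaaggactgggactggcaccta

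The windows were identical at 227 of 253 aligned positions (89.7%), with 20 differing bases and 6 gap positions. Hamp held GGCGCC between 109 and 104 bases before the start. At the aligned letters Hamp2 carried the substitution G4A, Hamp's base first and positions counted from 1 at the 5′ end of the motif, and had no match in its window. Both held TTCTTGGAA, between 97 and 89 bases before the start in Hamp and between 94 and 86 in Hamp2. Both motifs read the same on either strand and the matches do not overlap. Of 32851 such windows in the table, 9.59% held GGCGCC and 7.02% held TTCNNNGAA. Of the 8 genes 5 had a window there, and Tfrc held GGCGCC in 1 of its 2 windows. A match describes the letters and is no evidence of binding.

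Some arrays carried transcripts of other tissues. Array medians lay between 4.04 and 4.18 on the log2 scale, and whether low values lie above background is not known. In the coronary arrays the 14 shared cardiomyocyte genes averaged between 9.56 and 9.87 and the 10 smooth muscle genes between 5.39 and 5.72. Smooth muscle actin (Acta2) stood at 7.97, 7.96 and 7.22 there, between 9.52 and 11.23 in ascending aorta, between 10.09 and 10.41 in descending aorta and between 8.72 and 11.60 in superior mesenteric artery. The 10 smooth muscle genes averaged 6.35, 8.10 and 8.14 in ascending aorta and 6.82, 7.17 and 7.15 in descending aorta. In superior mesenteric artery they averaged 9.09, 5.96 and 6.36. Ascending aorta replicate 1 held B cell genes at an average of 7.80, and descending aorta replicate 1 held shared cardiomyocyte genes at 5.72. In superior mesenteric artery, B cell genes reached 6.69 in replicate 2 and 6.45 in replicate 3, and the acinar genes of the pancreas reached 9.08 in replicate 3. In a whole vessel, fewer cells of a type and less RNA per cell cannot be told apart.

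Hamp was high in every coronary array. Its log2 values were 11.24, 11.66 and 10.38 in coronary artery, 4.46, 4.26 and 2.61 in ascending aorta, 7.66, 3.06 and 2.87 in descending aorta, and 1.81, 4.58 and 4.41 in superior mesenteric artery. The lowest coronary array stood above all 9 others, whose ranges overlapped one another. The means were 11.10 ± 0.66 in coronary artery, 3.78 ± 1.01 in ascending aorta, 4.53 ± 2.71 in descending aorta and 3.60 ± 1.55 in superior mesenteric artery (SD, n = 3 each). The coronary mean was 159.6-fold that of ascending aorta, 94.7-fold that of descending aorta and 180.8-fold that of superior mesenteric artery. Whether the low values of the other vessels lie above background is not known, so these folds are not exact. On the log2 scale, coronary minus descending aorta was 6.57, and it was 8.13, 5.83 and 5.73 without descending aorta replicate 1, 2 and 3. Coronary minus superior mesenteric artery was 7.50, and 6.60 without superior mesenteric artery replicate 1.

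**Figure D1:**
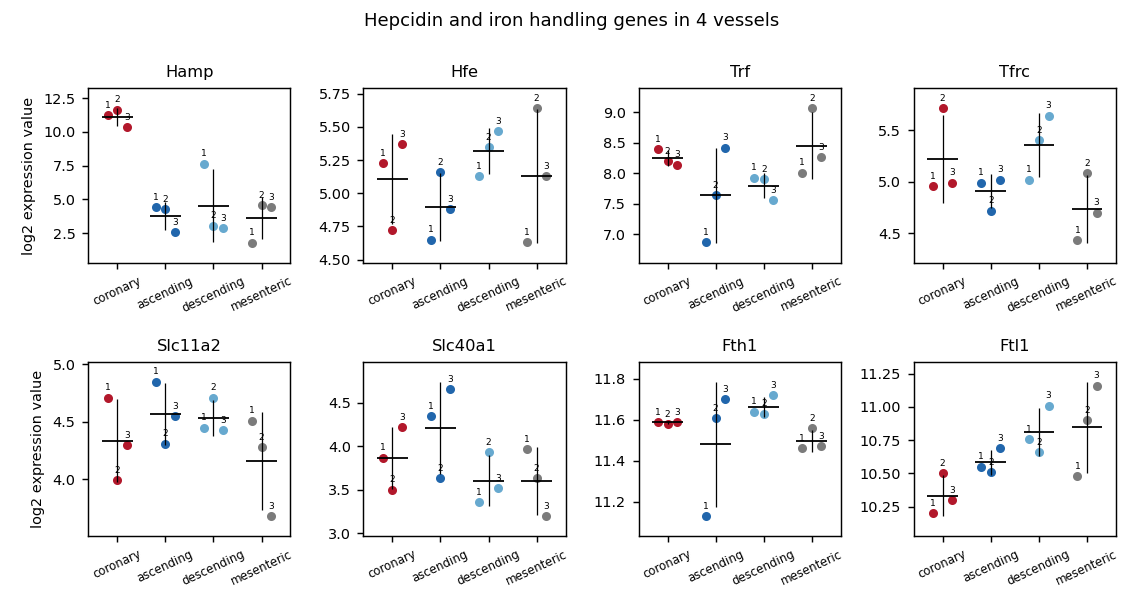
Log2 expression of the 8 genes in the 4 vessels (x axis; superior mesenteric artery is written as mesenteric), with 1 numbered point per replicate array, a bar at the mean and a line of 1 SD to each side, and a y axis of its own in each panel. Hamp lies between 10.38 and 11.66 in coronary artery and at 7.66 or below elsewhere, while the other 7 genes overlap between most vessels.

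Heart muscle transcripts moved with Hamp. Of the shared cardiomyocyte genes, 14 of 14 passed as higher in coronary artery than in ascending aorta, 14 of 14 against descending aorta and 13 of 14 against superior mesenteric artery (limma, adjusted p under 0.05). Of 10 atrial genes, 6 were higher in coronary artery in each of these comparisons. Of 8 ventricular genes, 7 were higher in coronary artery than in ascending aorta, and 6 than in each of the other vessels. Over all genes, 1.87% were higher against ascending aorta, 1.53% against descending aorta and 2.71% against superior mesenteric artery. Myl7, the atrial myosin light chain, measured 12.02, 12.40 and 11.57 in coronary artery, and Myl2, the ventricular one, 12.13, 11.94 and 12.20.

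The array outside the coronary artery with the most Hamp also carried some of these transcripts. In descending aorta replicate 1, with Hamp at 7.66, Myl7 stood at 9.24 and Myl4, an atrial and embryonic myosin light chain, at 8.29, against 4.42 and 5.19 in replicate 2 and 4.86 and 4.88 in replicate 3. Nppa, the atrial natriuretic peptide gene, was at 4.17 in that array and Myl2 at 3.83, while the coronary arrays had Nppa at 10.27 or above and Myl2 at 11.94 or above. Superior mesenteric artery replicate 3 had Myl7 at 7.86 with Hamp at 4.41. In replicate 1 of that vessel the ventricular list averaged 4.66 and the shared list 4.58, with Hamp at 1.81. Descending aorta replicate 1 had these lists at 4.17 and 5.72. Among coronary replicates 1, 2 and 3, where Hamp was highest in replicate 2 and lowest in replicate 3, the atrial list averaged 6.72, 7.31 and 6.86, the ventricular list 7.52, 7.43 and 7.60 and the shared list 9.78, 9.56 and 9.87. The atrial list was highest in replicate 2 but lowest in replicate 1, and the other lists were lowest in replicate 2. The part of heart muscle in the Hamp values was not tested.

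Liver, the organ that makes most hepcidin, was marked by transcripts that stayed low in most arrays. The 9 measured hepatocyte genes averaged between 4.21 and 5.03 in coronary artery and between 3.65 and 5.77 in the other vessels, and 0 of 9 passed in limma in any comparison of coronary artery with another vessel, with 2 at an unadjusted p under 0.05 against ascending aorta, 1 against descending aorta and 1 against superior mesenteric artery (all genes 14.8%, 12.7% and 14.8%). The list's median difference, coronary artery minus the other vessel, was 0.80 for ascending aorta, 0.0048 for descending aorta and -0.22 for superior mesenteric artery. Alb, the albumin gene and first of the list, varied more than these averages. It ranged from 2.55 to 7.19 in coronary artery and from 2.64 to 3.79 in ascending aorta. In descending aorta it ranged from 3.37 to 5.74, and in superior mesenteric artery from 2.90 to 8.61. The part of liver in the Hamp values was not tested.

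The 5 genes whose values over the 12 arrays ran closest to Hamp were all transcripts of striated muscle. They were Csrp3, the muscle LIM protein (Pearson's r 0.97, Spearman's rho 0.85), Tnni3, cardiac troponin I (0.97 and 0.87), Smpx (0.96 and 0.65), Myl4 (0.96 and 0.73) and Cox6a2, the muscle form of a cytochrome oxidase subunit (0.96 and 0.73). In each of these genes the 3 coronary arrays stand far from the other 9, and all 12 share 1 normalization.

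Hamp2 was also higher in coronary artery, by less than Hamp. Its values were 8.41, 9.17 and 7.26 in coronary artery, 5.63, 5.46 and 5.84 in ascending aorta, 6.59, 6.47 and 6.04 in descending aorta, and 5.86, 6.89 and 6.02 in superior mesenteric artery. Again the lowest coronary array lay above the 9 others. The difference was 2.64 ± 0.41 against ascending aorta (6.23-fold; limma adjusted p = 0.00302), 1.91 ± 0.41 against descending aorta (adjusted p = 0.0223) and 2.02 ± 0.41 against superior mesenteric artery (adjusted p = 0.0154), each ± SE. The call against descending aorta was lost without coronary artery replicate 1 or 2 or any 1 descending aorta array (adjusted p between 0.0573 and 0.0968). Without coronary artery replicate 1 or 2, the call against superior mesenteric artery was lost (limma adjusted p = 0.0636 and 0.0588). It was also lost without superior mesenteric artery replicate 1 or 3 (0.0563 and 0.0746). The same held without 3 of the arrays rich in transcripts of other tissues (0.0575). Whether the probes of each hepcidin gene also bind RNA of the other was not tested, so the paralogues' values may not be separate measurements.

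Hjv encodes hemojuvelin, the co-receptor through which bone morphogenetic proteins raise hepcidin transcription in the liver, and skeletal and heart muscle express it strongly. It measured 7.93, 8.07 and 8.01 in coronary artery, 3.12, 3.60 and 3.81 in ascending aorta, 3.39, 2.81 and 3.98 in descending aorta, and 3.84, 3.72 and 2.94 in superior mesenteric artery. The coronary arrays agreed closely and no other array reached 4. Hjv was higher in coronary artery by 4.49 ± 0.31 than in ascending aorta, by 4.61 ± 0.31 than in descending aorta and by 4.50 ± 0.31 than in superior mesenteric artery (limma adjusted p = 2.94e-06, 3.04e-06 and 3.17e-06). Unlike Hamp, Hjv was at 3.39 in descending aorta replicate 1.

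**Figure D2:**
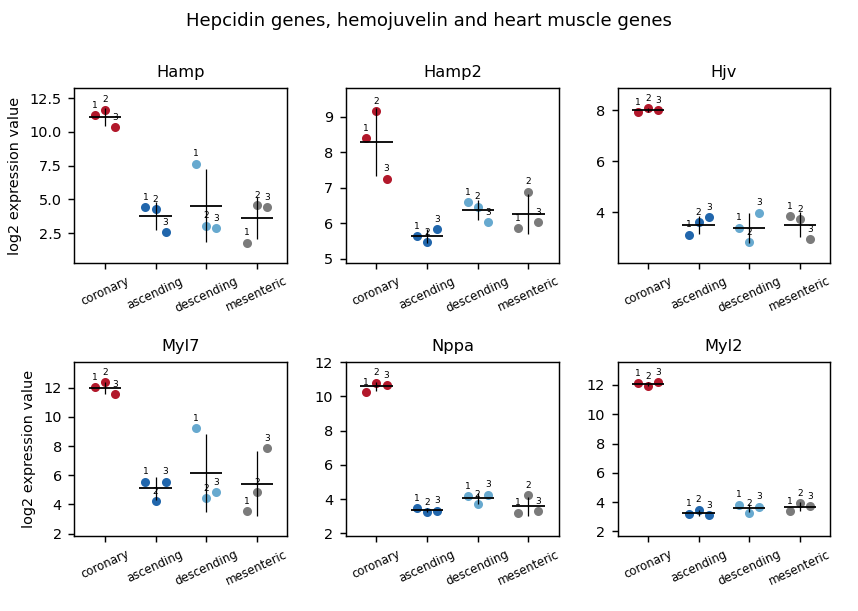
Log2 values of Hamp, Hamp2 and Hjv and of the heart muscle genes Myl7, Nppa and Myl2 in the 4 vessels, with numbered points for replicate arrays, a bar at the mean and a line of 1 SD to each side. Descending aorta replicate 1 is raised in Hamp (7.66) and Myl7 (9.24) but not in Hjv (3.39), Nppa (4.17) or Myl2 (3.83).

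None of the other 7 genes passed the threshold between any pair of vessels. They were tested in limma's fit across all genes, over 6 comparisons, which gave 42 tests with 0 passed and adjusted p between 0.238 and 0.999. At an unadjusted p under 0.05 there were 4 of 42, 1 in each of 4 comparisons, where 7.22% to 14.8% of all genes were at that level. Over all genes, 2.47% passed at the adjusted threshold between coronary artery and ascending aorta, 3.14% between coronary and descending aorta, 3.24% between coronary and superior mesenteric artery, 0.015% between ascending and descending aorta, 0.176% between ascending aorta and superior mesenteric artery and 3.2% between descending aorta and superior mesenteric artery. Their vessel means spanned 0.18 to 0.80 on the log2 scale, against 7.50 for Hamp. The 95% intervals of the 42 differences lay between -1.56 and 1.36, so differences of up to that size are not excluded for the widest of them. Over pairs of the 8 genes, Pearson's r over the 12 arrays lay between -0.54 (Hamp and Ftl1) and 0.63 (Slc40a1 and Slc11a2).

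Hfe is an MHC class I-like protein that binds the transferrin receptor and takes part in iron sensing by the liver. Its log2 values were 5.23, 4.72 and 5.37 in coronary artery, 4.65, 5.16 and 4.88 in ascending aorta, 5.13, 5.35 and 5.47 in descending aorta, and 4.63, 5.64 and 5.13 in superior mesenteric artery. All 4 ranges overlapped. The means ran from 5.31 ± 0.17 in descending aorta through 5.13 ± 0.50 in superior mesenteric artery and 5.11 ± 0.34 in coronary artery to 4.89 ± 0.25 in ascending aorta, and no neighbours in this order differed beyond their spread. Coronary artery minus ascending aorta gave 0.21 (95% interval -0.36 to 0.78).

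Trf encodes transferrin, the iron carrier of plasma. It had values of 8.40, 8.20 and 8.14 in coronary artery, 6.87, 7.64 and 8.42 in ascending aorta, 7.93, 7.91 and 7.56 in descending aorta, and 8.01, 9.06 and 8.27 in superior mesenteric artery. The coronary arrays lay above all 3 descending arrays, while ascending aorta spread widely. The order of the means was superior mesenteric artery at 8.45 ± 0.55, coronary artery at 8.25 ± 0.14, descending aorta at 7.80 ± 0.21 and ascending aorta at 7.64 ± 0.77, and the neighbours whose ranges did not overlap were coronary artery and descending aorta. Their difference was 0.45 ± 0.35 (limma adjusted p = 0.712).

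Single arrays moved the Trf differences. Coronary artery minus ascending aorta was 0.60, and 0.22 without ascending aorta replicate 1, the array rich in B cell genes. Ascending aorta minus superior mesenteric artery was -0.80 ± 0.35, with an unadjusted p of 0.0397 and a limma adjusted p of 0.646, and -0.42 without the same array. Coronary artery minus superior mesenteric artery was -0.20 and turned to 0.11 without superior mesenteric artery replicate 2, which held the highest Trf value and the highest value of Alb, the albumin gene, at 8.61.

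Tfrc, the transferrin receptor, brings transferrin-bound iron into the cell and is most abundant in dividing cells and red cell precursors. Its values were 4.96, 5.71 and 4.99 in coronary artery, 4.99, 4.72 and 5.02 in ascending aorta, 5.02, 5.40 and 5.64 in descending aorta, and 4.43, 5.08 and 4.70 in superior mesenteric artery. Neighbouring vessels overlapped throughout the order, which ran from descending aorta at 5.36 ± 0.31 through coronary artery at 5.22 ± 0.43 and ascending aorta at 4.91 ± 0.16 to superior mesenteric artery at 4.74 ± 0.33. Descending aorta minus superior mesenteric artery was the widest gap, at 0.62 ± 0.25 (unadjusted p = 0.03, limma adjusted p = 0.281).

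Slc11a2 encodes the divalent metal transporter that carries iron across the gut brush border and out of endosomes. It stood at 4.71, 3.99 and 4.30 in coronary artery, 4.85, 4.31 and 4.55 in ascending aorta, 4.45, 4.71 and 4.43 in descending aorta, and 4.51, 4.28 and 3.68 in superior mesenteric artery. All neighbours in the order of means overlapped, from 4.57 ± 0.27 in ascending aorta to 4.15 ± 0.43 in superior mesenteric artery, and those means differed by 0.42 ± 0.25 (limma adjusted p = 0.872).

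Slc40a1 encodes ferroportin, the exporter that hepcidin binds. Its log2 values were low in every vessel for this array: 3.87, 3.50 and 4.22 in coronary artery, 4.35, 3.63 and 4.66 in ascending aorta, 3.36, 3.93 and 3.52 in descending aorta, and 3.97, 3.63 and 3.20 in superior mesenteric artery. These values lie close to the array medians. Coronary artery, with its high Hamp, had a mean of 3.87 ± 0.36 and lay between ascending aorta at 4.21 ± 0.53 and descending aorta at 3.60 ± 0.30, with overlapping ranges. Ascending aorta minus superior mesenteric artery was the largest difference, at 0.61 ± 0.30 (limma adjusted p = 0.723). Macrophages, which export iron through ferroportin, were unevenly represented: 13 macrophage genes averaged between 6.08 and 6.84 in the coronary arrays, and the 3 superior mesenteric arrays stood at 5.96, 8.14 and 7.49, where Slc40a1 was at 3.97, 3.63 and 3.20.

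Fth1 and Ftl1 encode the heavy and light chains of ferritin, the heavy chain being the one that oxidises iron for storage. Fth1 had values of 11.59, 11.58 and 11.59 in coronary artery, 11.13, 11.61 and 11.70 in ascending aorta, 11.64, 11.63 and 11.72 in descending aorta, and 11.46, 11.56 and 11.47 in superior mesenteric artery. Apart from ascending aorta replicate 1, all arrays lay within a narrow band, and the means spanned 0.18. The ranges of descending aorta, coronary artery and superior mesenteric artery did not overlap, though none of these gaps passed. Directions for Fth1 were not stable: coronary minus ascending aorta was 0.10, but -0.05 after a renewed quantile normalization and -0.07 without ascending aorta replicate 1. Coronary minus superior mesenteric artery was 0.09, and -0.02 after that normalization.

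Ftl1 was lowest in coronary artery in the order of means. It measured 10.20, 10.50 and 10.30 in coronary artery, 10.55, 10.51 and 10.69 in ascending aorta, 10.76, 10.66 and 11.01 in descending aorta, and 10.48, 10.90 and 11.16 in superior mesenteric artery. The highest coronary array lay just under the lowest ascending one, and superior mesenteric artery overlapped with every vessel. Coronary artery minus descending aorta was -0.47 ± 0.20 (unadjusted p = 0.033, limma adjusted p = 0.324) and coronary minus superior mesenteric artery -0.51 ± 0.20 (unadjusted p = 0.0232, limma adjusted p = 0.238). After a renewed quantile normalization the difference from superior mesenteric artery was -0.80 (limma adjusted p = 0.0562), the lowest adjusted p of any of these 7 genes under any alternative. The 4 Ftl1 probe sets that carry other symbols too had the same lowest and highest vessel, with means spanning 0.47 to 0.49. Whether they bind the same RNA as the one used was not tested, and they do not count as separate support.

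**Figure D3:**
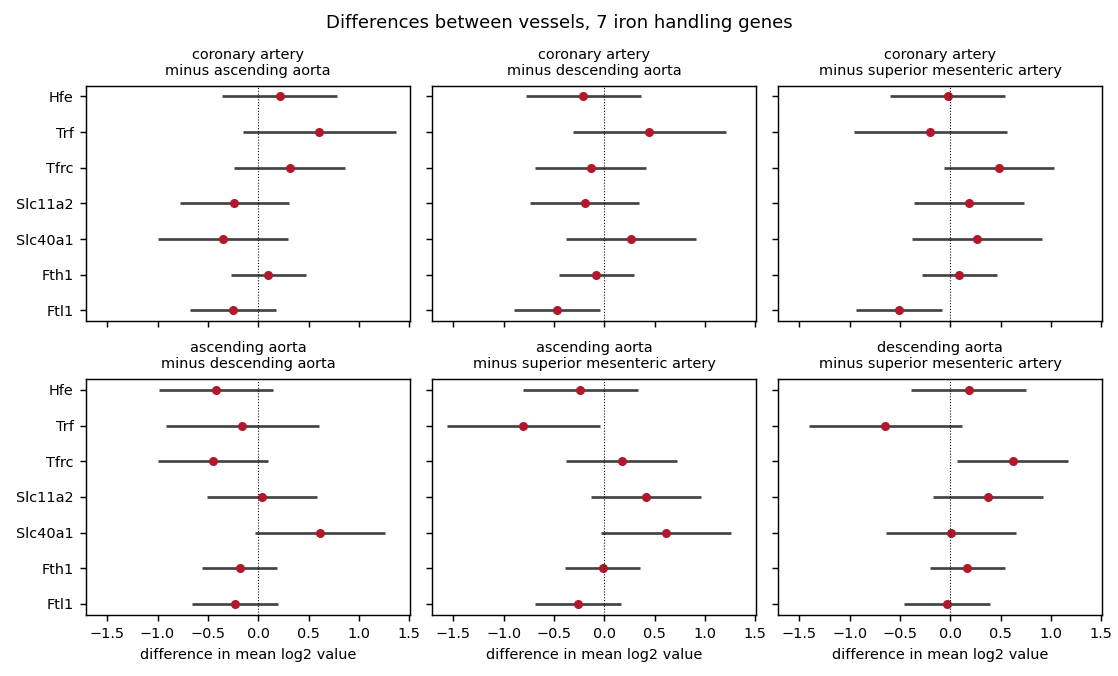
Differences in mean log2 value between vessels (x axis, first-named vessel minus second) for the 7 genes other than Hamp, with points for the estimates and lines for 95% intervals from limma, unadjusted for the number of genes. Estimates lie between -0.80 and 0.62, and the intervals of Ftl1 in 2 coronary comparisons, Trf in 1 and Tfrc in 1 leave out 0 before adjustment.

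Beyond the 8 genes, 5 lists covered hepcidin control, iron uptake and export, ferritin storage and cytosolic iron control, haem metabolism and iron-sulphur cluster assembly. Of their 99 genes 93 were measured, Hamp not among them and the other 7 members included. Hamp2 is counted in them, although its values may not be separate from those of Hamp, whose level chose the list. Its calls below are no separate support. In the moderated F test over the 4 vessels 9 of 93 passed (9.68%), against 4.72% of all genes. That count was 17 without ascending aorta replicate 1 and 5 without descending aorta replicate 1 or 2. Between pairs of vessels, 13 genes made 21 calls, of which 8 stayed past the threshold whichever 1 of the 12 arrays was left out: Hjv in its 3 comparisons, Hamp2 against ascending aorta, Aco1 between coronary and descending aorta, Slc25a37, and Hspa9 and Isca2 between descending aorta and superior mesenteric artery.

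Coronary artery differed from ascending aorta in 3 of 93 list genes (3.23%, against 2.47% of all genes): Hamp2 and Hjv were higher (all genes 1.87%) and Hif1a was lower. This count, like those of the other coronary comparisons, holds Hamp2, whose values may not be separate from those of Hamp. The median difference of the 93 was 0.01, against -0.0042 over all genes. Hif1a encodes the oxygen-labile subunit of a hypoxia-inducible factor. It had values of 5.98, 5.83 and 5.76 in coronary artery, against 6.65, 6.64 and 6.61 in ascending aorta, with no overlap, a difference of -0.78 ± 0.16 (limma adjusted p = 0.0205). That call was lost without replicate 2 or 3 of ascending aorta or of coronary artery (adjusted p between 0.0518 and 0.0874). It was also lost when the other 6 arrays were not fitted (0.102) and without 3 of the arrays rich in other tissues (0.0678). The count was 6 without ascending aorta replicate 1.

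Coronary artery differed from descending aorta in 5 of 93 (5.38%, against 3.14% of all genes), with Hamp2 and Hjv higher and Aco1, Hp and Hspa9 lower (all genes 1.61%). The median difference was -0.05, against -0.01 over all genes. Aco1, the cytosolic aconitase that acts as an iron regulatory protein when iron is low, had values of 5.26, 4.89 and 5.14 in coronary artery, against 7.12, 7.06 and 6.58 in descending aorta. The groups did not overlap, and the difference was -1.82 ± 0.30 (3.54-fold lower; limma adjusted p = 0.00439). Hp, haptoglobin, which captures free haemoglobin and is made by liver and fat, stood at 6.97, 6.85 and 6.97 in coronary artery, against 9.96, 9.93 and 8.91 in descending aorta. It was 6.37-fold lower (limma adjusted p = 0.0129), and the call was lost without any 1 coronary array or descending aorta replicate 1 or 2 (adjusted p between 0.0524 and 0.0777). Hspa9, a mitochondrial chaperone of cluster assembly, differed by -1.04 ± 0.23 (limma adjusted p = 0.0278), and did not pass without 1 of replicates 1 and 2 of either vessel (adjusted p between 0.0764 and 0.13) or with the replicate block (0.0608).

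Fat transcripts moved with these genes. Of the 8 shared adipocyte genes, 6 were lower in coronary artery than in descending aorta (all genes 1.61%). The 8 averaged between 6.02 and 6.28 in coronary artery, against 8.35 to 9.07 in descending aorta. In ascending aorta replicates 1, 2 and 3 that average was 6.76, 8.30 and 8.62, and Hp was at 6.94, 9.25 and 9.09 and Aco1 at 5.54, 6.86 and 6.63. The part of fat in these differences was not tested. The count of 5 was 11 without ascending aorta replicate 1, and 2 without 1 of replicates 1 and 2 of coronary artery or descending aorta.

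Coronary artery differed from superior mesenteric artery in 4 of 93 (4.3%, against 3.24% of all genes): Hamp2 and Hjv were higher and Slc25a37 and Il6ra were lower. The median was -0.03, against -0.02 over all genes. Slc25a37 encodes mitoferrin 1, which imports iron into mitochondria and is abundant in developing red cells. It had values of 5.38, 5.58 and 4.90 in coronary artery, against 7.08, 7.16 and 8.49 in superior mesenteric artery, a difference of -2.29 ± 0.40 with no overlap (limma adjusted p = 0.0062). Of the 10 red cell precursor genes 4 were measured; they averaged between 3.65 and 4.41 in coronary artery, against 4.68 to 6.08 in superior mesenteric artery, and 0 of 4 passed in limma (2 at an unadjusted p under 0.05, all genes 14.8%). The highest of these averages and the highest Slc25a37 value fell in the same array, superior mesenteric artery replicate 3. The part of red cell precursors was not tested.

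Il6ra, the receptor for interleukin 6, a cytokine that raises hepcidin transcription in liver, differed by -0.96 ± 0.24 between coronary artery and superior mesenteric artery (limma adjusted p = 0.046). The call was lost without any 1 coronary, descending aorta or superior mesenteric artery array or without ascending aorta replicate 3 (adjusted p between 0.0508 and 0.168), and also with median centring (0.0518), a renewed quantile normalization (0.0687) or the replicate block (0.0646). The count of 4 was 10 without ascending aorta replicate 1 and 2 without coronary artery replicate 1 or 2.

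Between ascending and descending aorta, 0 of 93 list genes passed in limma, against 0.015% of all genes, and 13 of 93 had an unadjusted p under 0.05, against 9.64% of all genes, with a median difference of -0.14, against -0.02 over all genes. Between ascending aorta and superior mesenteric artery, 1 of 93 passed (1.08%, against 0.176% of all genes), and it was lower in ascending aorta (all genes 0.0401%). It was Abcg2, a membrane exporter of porphyrins and other compounds, at 4.26, 3.79 and 3.88 in ascending aorta, against 7.21, 5.37 and 6.06 in superior mesenteric artery. The difference was -2.23 ± 0.36 with no overlap (limma adjusted p = 0.0346). It was lost without replicate 2 or 3 of ascending aorta, replicate 3 of superior mesenteric artery or any 1 coronary or descending aorta array (adjusted p between 0.0652 and 0.178), with the replicate block (0.0669) and when the other 6 arrays were not fitted (0.739). The count of 1 was 9 without ascending aorta replicate 1.

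Descending aorta and superior mesenteric artery differed in 8 of 93 (8.6%, against 3.2% of all genes), 7 higher (all genes 2.84%) and 1 lower in descending aorta. Of 13 iron-sulphur cluster genes 4 were higher, Hspa9, Isca2, Nfu1 and Fdx1, and 0 lower. The list median was 0.66, against -0.01 over all genes. That median was also 0.53 for coronary minus superior mesenteric artery and -0.57 for ascending minus descending aorta, each with 0 of 13 passed. It was -0.35 for coronary minus descending aorta, 0.17 for coronary minus ascending aorta and 0.02 for ascending aorta minus superior mesenteric artery. Hspa9 had values of 8.86, 8.90 and 8.54 in descending aorta, against 7.21, 7.02 and 7.01 in superior mesenteric artery, a difference of 1.68 ± 0.23 (limma adjusted p = 0.00211). Isca2, a cluster carrier of the mitochondrion, was at 6.89, 7.03 and 7.02 in descending aorta, against 5.44, 5.50 and 5.41 in superior mesenteric artery, a difference of 1.53 ± 0.26 (limma adjusted p = 0.00717). Neither gene overlapped between these vessels.

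Nfu1, another cluster carrier, was higher by 1.28 ± 0.25 and Fdx1, a mitochondrial ferredoxin, by 1.46 ± 0.31 (limma adjusted p = 0.0166 and 0.0224). Nfu1 was lost without descending aorta replicate 2 or superior mesenteric artery replicate 1 or 3 (adjusted p between 0.0542 and 0.0785), and with its 2 probe sets averaged (a difference of 0.71, adjusted p = 0.0697). Fdx1 was lost without any 1 descending aorta array or superior mesenteric artery replicate 1 or 3 (adjusted p between 0.0642 and 0.12). Brown fat, a tissue dense in mitochondria, differed alongside: 4 of 7 brown adipocyte genes were higher in descending aorta (all genes 2.84%). The 7 averaged between 7.24 and 7.98 in descending aorta, against 3.95 to 4.73 in superior mesenteric artery. The part of brown fat in these differences was not tested.

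Of 19 haem genes, 2 were higher (all genes 2.84%) and 1 lower (all genes 0.361%) in descending aorta than in superior mesenteric artery. Alas1, the first enzyme of haem synthesis, was at 7.62, 8.21 and 6.88 in descending aorta, against 6.26, 5.70 and 6.18 in superior mesenteric artery (difference 1.52 ± 0.36, limma adjusted p = 0.0414). Hp was 5.38-fold higher (limma adjusted p = 0.0245), and Abcg2, at 4.49, 4.77 and 4.41 in descending aorta, was 3.16-fold lower (limma adjusted p = 0.0266). Aco1 was higher by 1.27 ± 0.30 (limma adjusted p = 0.0397). Alongside, 5 of 8 shared adipocyte genes were higher in descending aorta, with a median difference of 2.08. The 8 endothelial genes averaged 6.15, 5.68 and 6.15 in descending aorta, against 7.89, 5.78 and 6.88 in superior mesenteric artery, where Abcg2 was at 7.21, 5.37 and 6.06, and 0 of 8 passed (3 at an unadjusted p under 0.05, all genes 13.9%). The part of fat and endothelium in these differences was not tested. None of the calls of Alas1, Hp, Abcg2 and Aco1 held in all fits with 1 array left out. Alas1 was lost without any 1 coronary or superior mesenteric artery array or descending aorta replicate 1 or 2 (adjusted p between 0.065 and 0.212), Aco1 without any 1 coronary, descending aorta or superior mesenteric artery array (0.0581 to 0.178), Abcg2 without any 1 descending aorta array or superior mesenteric artery replicate 3 (0.0746 to 0.0981), and Hp without descending aorta replicate 1 or 2 or superior mesenteric artery replicate 1 or 3 (0.078 to 0.129). With the replicate block, Alas1 (0.0744) and Aco1 (0.0601) did not pass. The count of 8 was 3 without descending aorta replicate 1 or superior mesenteric artery replicate 1, 2 without descending aorta replicate 2 or superior mesenteric artery replicate 3, and 5 without descending aorta replicate 3.

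**Figure D4:**
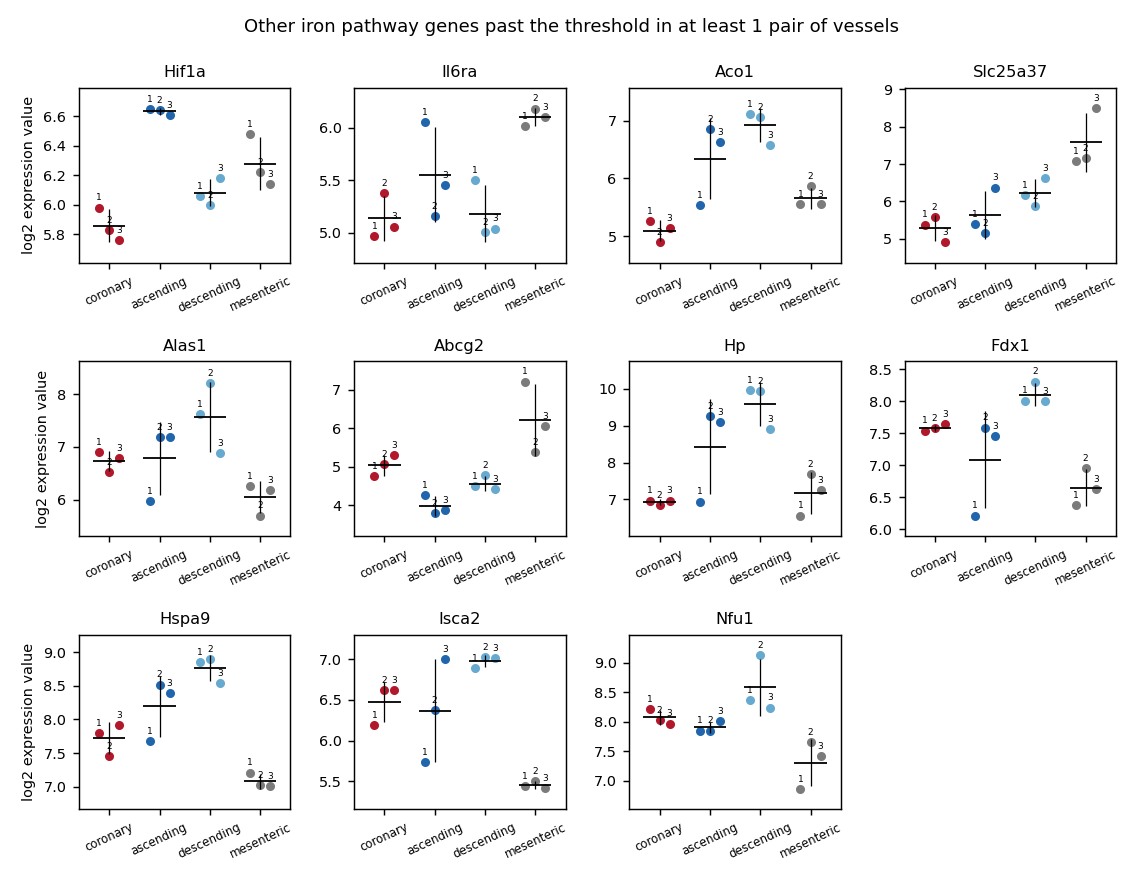
Log2 values of the 11 list genes other than Hamp2 and Hjv that passed the threshold between at least 1 pair of vessels, with numbered points for replicate arrays, a bar at the mean and a line of 1 SD to each side. Hspa9 and Isca2 are higher in every descending aorta array than in any superior mesenteric artery array, and ascending aorta replicate 1 stands apart in Aco1 (5.54), Hp (6.94) and Fdx1 (6.21).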

How the data were processed

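Total RNA of 12 samples was hybridised to Affymetrix mouse arrays. The authors deposited 1 table of 35556 probe sets with log2 values per array; RMA and Partek 6.6 are named in the submitters' processing notes, with no role or order. No further normalization was applied for the results given. Probe sets with 1 symbol in the platform annotation (21789) were kept, those with several (1621) or none (12146) left out; 21698 matched the GRCm38.p6 gene table by identifier. The probe set with the highest mean was used for each gene. The 8 genes and the lists were chosen with earlier results of these data known. All 8 are named, and in each list and comparison at most 5 genes past the threshold, by size of difference.

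A mean per vessel was fitted by limma 3.58.1 (R 4.3.3) over the 12 arrays, with 8 residual degrees of freedom, 6 contrasts and a moderated F test, Benjamini-Hochberg adjustment over 19938 genes and a threshold of 0.05. The procedure was tested on simulated data. The number of arrays limits the precision. Same-numbered arrays of different vessels deviated together in 0 of 18 pairs (r over 0.1), and differently numbered arrays in 3 of 36. Numbers were not taken to pair samples, but deviations from means of 3 arrays cannot show that samples were unpaired. Alternatives were array weights, the replicate block, a second quantile normalization, centring on array medians, probe sets averaged per gene, no genes of the dimmest 25%, a fit on a pair's own 6 arrays, and each array left out. A fit without 3 arrays rich in other tissues was added after the data were seen. It left out replicate 1 of ascending aorta, replicate 1 of descending aorta and replicate 3 of superior mesenteric artery. Superior mesenteric artery replicate 2, also rich in B cell genes, was kept. Figures were drawn with matplotlib 3.10.9.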

Additional observations from a re-analysis of the deposited data

How the results depend on the processing

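The 7 genes other than Hamp gave 840 tests under 20 alternative settings, and 0 passed (lowest limma adjusted p 0.0562). For Hamp, with 1 array left out, coronary minus ascending aorta lay between 6.74 and 7.68, minus descending aorta between 5.73 and 8.13, and minus superior mesenteric artery between 6.60 and 7.99. Counts of list genes past the threshold moved more. Over the 4 vessels 9 passed, 17 with array weights and 5 to 17 with 1 array left out. Between coronary artery and ascending aorta 3 passed, 5 with array weights and 2 to 6 with 1 array left out. Without 3 of the arrays rich in other tissues, 5 passed there. Between coronary and descending aorta 5 passed, 11 with array weights, 12 with only the pair's arrays and 2 to 11 with 1 left out. Between coronary and superior mesenteric artery 4 passed, 7 with array weights, 8 with only the pair's arrays and 2 to 10 with 1 left out. Between ascending aorta and superior mesenteric artery 1 passed, 3 after a renewed quantile normalization, 6 with array weights, 5 without the 3 arrays, 0 with the replicate block, 0 with only the pair's arrays and 0 to 9 with 1 left out. Between descending aorta and superior mesenteric artery 8 passed and 2 to 11 with 1 left out. Abcg2 between descending aorta and superior mesenteric artery was lost without the 3 arrays (limma adjusted p = 0.0794) and with only the pair's arrays (0.0565). Aco1 between those vessels was lost after a renewed quantile normalization (0.057). The cause was not tested, beyond the fewer arrays of some fits. Replicate numbers were not taken to pair samples, though pairing is not excluded. Deviations of same-numbered arrays correlated between -0.25 and 0.09, and those of differently numbered arrays between -0.21 and 0.27. Signal over background is unknown, which limits low genes such as Slc40a1.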

Other observations

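By the same measure of likeness as for Hamp, other members ran closest to genes of varied kinds over the 12 arrays, given as a description with no test. Ftl1 ran closest to Cetn4, Psme3 and Gpx1, the selenium-containing glutathione peroxidase (Pearson's r 0.93, 0.92 and 0.91). Trf ran closest to Ednrb, the endothelin receptor B gene (0.90), Plp2 (0.87) and Nfe2l2, a transcription factor of the oxidative stress response (0.86). Hfe ran closest to Cyp2j5 (0.91), to Folr2, a folate receptor of tissue macrophages (0.88), and to Cyp2c54 (0.87). For Fth1 the closest were Fkbp7 (0.96), Cbr2 (0.96) and Atraid (0.95), in which ascending aorta replicate 1 is the low array for Fth1 at 11.13.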
